A study of Bos taurus with 15 samples.

Results

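Fatty acid synthase (FASN) and stearoyl-CoA desaturase (SCD) were examined in the CpG methylation data of Holstein offspring whose dams were heat stressed or cooled before calving. Members were chosen by position on the bovine assembly UMD3.1: the FASN window ran on chromosome 19 from 51370000 to 51420000, with the gene at about 51384922 to 51403614, and the SCD window on chromosome 26 from 21120000 to 21165000, with the gene at about 21137945 to 21148318. Together the windows held 93 bins of 1 kb with at least 1 read call, 50 of FASN and 43 of SCD, of 2398559 in the series. Exons, introns, untranslated regions and strand were not analysed here, so the ends of each gene are called lower and upper by coordinate. The RefSeq models of both genes on the later assembly ARS-UCD2.0 are longer than the intervals used, so an end of either interval may not be the transcription start.

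FASN builds saturated fatty acids from acetyl-CoA and malonyl-CoA, and its main product is palmitate. SCD puts a double bond into stearate and palmitate, giving oleate and palmitoleate. Both are core genes of milk fat synthesis in the lactating mammary gland. CpG methylation near a transcription start usually goes with a silent promoter, active promoters in CpG-dense DNA are mostly unmethylated, and gene bodies are usually methylated.

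The data were reduced representation bisulfite sequencing (RRBS) of 15 animals with 1 library each. Liver came from bull calves at birth, 5 in utero cooled (IUCL-B) and 4 in utero heat stressed (IUHT-B), and mammary gland was taken from first-lactation heifers on day 21, 3 in utero cooled (IUCL-H) and 3 in utero heat stressed (IUHT-H). The dams of the heat stressed groups had no cooling during about the last 6 to 7 weeks of gestation, and those of the cooled groups were cooled over the same weeks. Tissue, sex, age and library went together, so a difference between liver and mammary gland cannot be told apart from one between newborn males and lactating females. Both tissues were bulk samples, in which the mix of cells and the level within a cell cannot be told apart, and the tissue labels could not be checked against marker genes.

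Heifer libraries held 13949097 to 20240625 calls over 7552567 to 9753540 positions, and calf libraries 10484911 to 38221835 calls over 307023 to 5958861 positions. The reads of the genes followed the same split. Heifers had 1090 to 1809 calls over 619 to 964 FASN positions and 220 to 321 calls over 155 to 209 SCD positions. Calves had 255 to 4087 calls over 22 to 649 FASN positions and 66 to 941 calls over 12 to 167 SCD positions, with up to 296 reads at a single position. Summed over calves, FASN positions had more than 10 reads in a calf 321 times, and in 304 of these the position was read in 1 state only, all methylated or all unmethylated, as it was in 97 of 100 for SCD. IUCL-B calves 4 and 5 had the most positions of both genes. In the other calves a pooled level therefore rested on few positions, and levels are also given with every position weighted alike.

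Each window had an unmethylated block that was low in both tissues. For FASN it lay at the lower end of the gene. The 1 kb bin that ends just inside the gene, 51384000 to 51384999, had a level of 3.91% ± 0.772 (SD, n = 5) in mammary gland, ranging from 2.56% to 4.35%, and 3.74% ± 7.47 (n = 4) in liver, ranging from 0% to 14.9%. The next bin, from 51385000, had 3.73% ± 3.28 (n = 3) in mammary gland and 5.04% ± 8.30 (n = 3) in liver. These levels counted animals with at least 10 calls in the bin.

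The bins beside the FASN block had higher mean levels than the block in both tissues. In the bin from 51383000, below the block, heifers ran from 9.09% to 38.1% and calves from 25.6% to 80%, and in the bin from 51386000, inside the gene, heifers ran from 22.2% to 27.3% and calves from 0% to 92.3%, so the tissues overlapped in both. In the 3 bins that follow, from 51387000 to 51389999, calves stood at 98.2% ± 3.11, 97.2% ± 2.88 and 95.3% ± 4.62 (n = 3 in each bin). Heifers stood at 56.7% ± 16.9 (n = 6), 43.4% ± 22.3 (n = 3) and 56.2% ± 15.4 (n = 5) in the same bins. These 3 bins had too few calves with 10 calls for the test. With a minimum of 5 calls the middle bin was tested and was 49.1 points lower in mammary gland (limma adjusted p = 0.0133), where 15.6% of all bins were called lower. Its heifers had 22.2%, 41.2% and 22.2% in IUCL-H and 62.5%, 66.7% and 77.8% in IUHT-H, on 8 to 18 calls each. The share of all bins with no overlap in this direction was 4.83% at 10 calls and was not computed at 5 calls.

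A second stretch of low mean methylation lay above FASN. Bins from 51415000 and 51416000 had 1.11% ± 1.92 (n = 3) and 10.4% ± 8.30 (n = 6) in mammary gland, against 12% ± 10.7 (n = 3) and 13.6% ± 21.0 (n = 4) in liver. In the bin from 51416000 heifers ran from 0% to 21.4%, and calves from 0% to 44.3%, the highest being IUCL-B calf 5. On ARS-UCD2.0 the genes that follow FASN on this side are DUS1L, GPS1 and RFNG, and which of them this stretch belongs to was not analysed here.

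**Figure D1:**
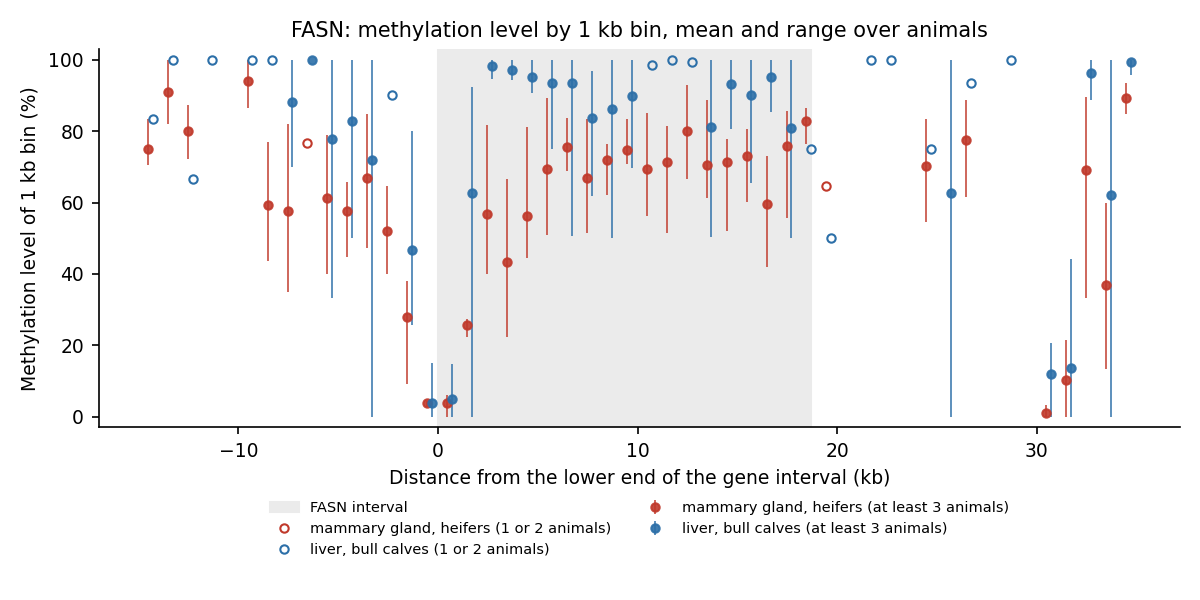
Methylation level (%) of each 1 kb bin of the FASN window against distance (kb) from the lower end of the gene interval, which is shaded. Filled circles are means over at least 3 animals with 10 or more calls and lines run from the lowest to the highest animal. Open circles rest on 1 or 2 animals. Both tissues were low at the lower gene end and in the bins that start at 30.1 and 31.1 kb, and through most of the gene the liver means lay above the mammary means.

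In the SCD window the block lay below the interval used for the gene, and whether it belongs to SCD was not analysed here. The bin from 21132000 to 21132999 had 2.14% ± 2.89 (n = 6) in mammary gland, from 0% to 7.14%, and 3.08% ± 6.88 (n = 5) in liver, from 0% to 15.4%. The bin from 21133000 had 6.62% ± 6.23 (n = 6) in mammary gland and 1.35% ± 2.34 (n = 3) in liver. The lower end of the SCD interval itself was almost unread, with 0 to 5 calls per heifer within 1 kb of it. One bin above the gene, from 21153000, was also low in mammary gland, at 8.97% ± 12.6 (n = 5), while its 3 calves spread from 0% to 95.3%.

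**Figure D2:**
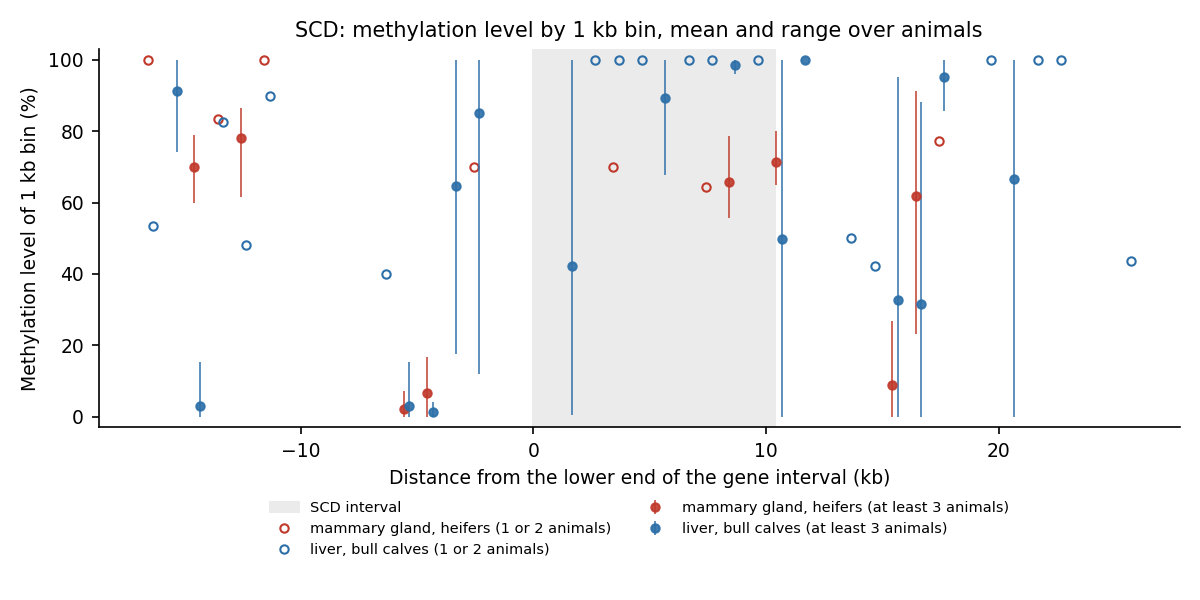
Methylation level (%) of each 1 kb bin of the SCD window against distance (kb) from the lower end of the gene interval, which is shaded. Symbols are as in the plot of the FASN window. The bin that starts at -14.9 kb was near 0% in liver and at 69.9% in mammary gland, and the bins that start at -5.95 and -4.95 kb were low in both tissues.

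Over the whole FASN window, mammary gland was less methylated than liver, by a difference whose test depended on how positions were weighted. With calls pooled, IUCL-H heifers 1, 2 and 3 had 71.6%, 69.4% and 61.1%, and IUHT-H heifers 62.6%, 66.8% and 64.6%. IUCL-B calves 1 to 5 had 81.5%, 89.5%, 94.9%, 61.4% and 81.4%, and IUHT-B calves 2 to 5 had 57.6%, 85.9%, 63.8% and 97.6%. The heifers lay close together, whereas the calves spread from below the lowest heifer to far above the highest. The means were 66.0% ± 4.01 (n = 6) in mammary gland and 79.3% ± 14.8 (n = 9) in liver, a difference of -13.3 points (two-sided exact permutation test, p = 0.0549, adjusted p = 0.440 over the 8 tests of both windows). With every position weighted alike the means were 63.2% ± 4.86 and 78.6% ± 8.32, a difference of -15.3 points (exact permutation p = 0.0024, adjusted p = 0.0192). With each position counted as 1 call it was -13.4 points (adjusted p = 0.0480). The smallest p that 6 against 9 animals can give is 0.0002.

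**Figure D3:**
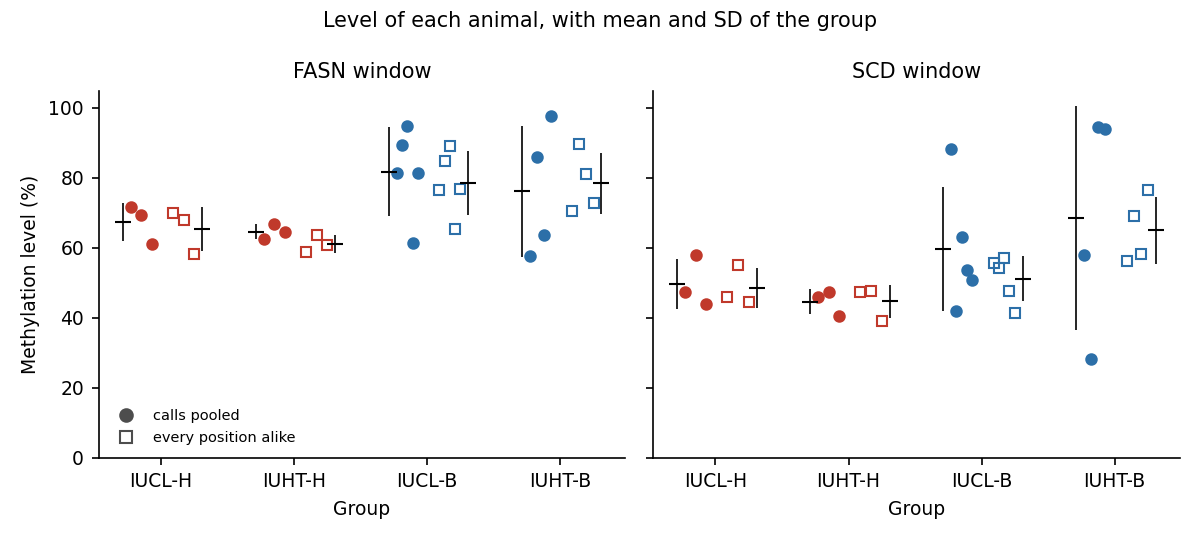
Methylation level (%) of the FASN and SCD windows in each animal by group, with calls pooled (filled circles) and with every position weighted alike (open squares). Horizontal ticks are group means and vertical lines 1 SD. Pooled levels of the calves spread most, from 28.1% to 94.6% for SCD.

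Animals were not read at the same positions, and comparing each calf with the heifers only where both were read removed that difference in composition. In FASN the heifers, pooled at each position, were lower than the calf in 9 of 9 calves. The differences were -18.3, -25.1, -17.5, -21.8 and -21.3 points for IUCL-B calves 1 to 5 and -19.3, -19.9, -3.55 and -11.1 points for IUHT-B calves 2 to 5, over 17 to 465 shared positions. Their mean was -17.5 points ± 6.48 (SD, n = 9). Within the FASN gene the pooled difference between the tissues did not pass, at -12.3 points (exact permutation p = 0.124, adjusted p = 0.462). Without the first 2 kb of the gene it was -17.5 points (exact permutation p = 0.0050, not adjusted, a setting chosen after seeing the data). That stretch holds the part of the unmethylated block inside the gene and most of the bin from 51386000. As it was picked with its levels known, this p is a description and not a test. At shared positions of the gene the mean was -21.0 points ± 9.81 over 8 calves with at least 10 shared positions, from -32.4 to -1.34. The heifers are the same in each of these values, so no test is given. IUHT-B calf 4 was the nearest to 0 in both.

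The whole genome moved the same way by less. At all shared positions mammary gland was lower in every calf, by differences of -5.39 to -2.29 points, with a mean of -3.68 points ± 0.870 (n = 9). Of 12681 tiles of 50 kb with a value in at least 7 calves, the median was -3.29 points and 0.986% were lower than the FASN window. Of the 6016 tiles with all 9 calves, mammary gland was lower in all 9 in 15.9%, and 0.549% had a lower mean than FASN. The FASN window was thus well below the median of the tiles, which is a description of these animals and not a test.

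The SCD window as a whole did not show this difference at shared positions. The differences were -4.70, 3.80, -8.09, -4.68 and 1.46 points for IUCL-B calves 1 to 5, 1.56 for IUHT-B calf 2 and 5.91 for IUHT-B calf 5, with 11 to 108 shared positions each. Mammary gland was lower in 3 of these 7 calves, and the mean was -0.676 points ± 5.17. By region it was 9.39 points below the gene over 4 calves, and -15.8 points in the gene and -11.2 above it in 1 calf each. In the calves with the most shared positions, most lay below the gene, 79 of 108 in IUCL-B calf 5 and 40 of 54 in IUCL-B calf 4. The window value therefore says little about the SCD gene itself. Of the same 12681 tiles, 69.7% were lower than the SCD window. The pooled SCD levels were 47.4%, 57.9% and 43.9% in IUCL-H, 45.9%, 47.4% and 40.7% in IUHT-H, 88.2%, 42.1%, 63.1%, 53.8% and 50.8% in IUCL-B, and 58.0%, 28.1%, 94.6% and 93.9% in IUHT-B. The tissues overlapped, and the difference of -16.4 points did not pass (exact permutation p = 0.125, adjusted p = 0.4995).

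**Figure D4:**
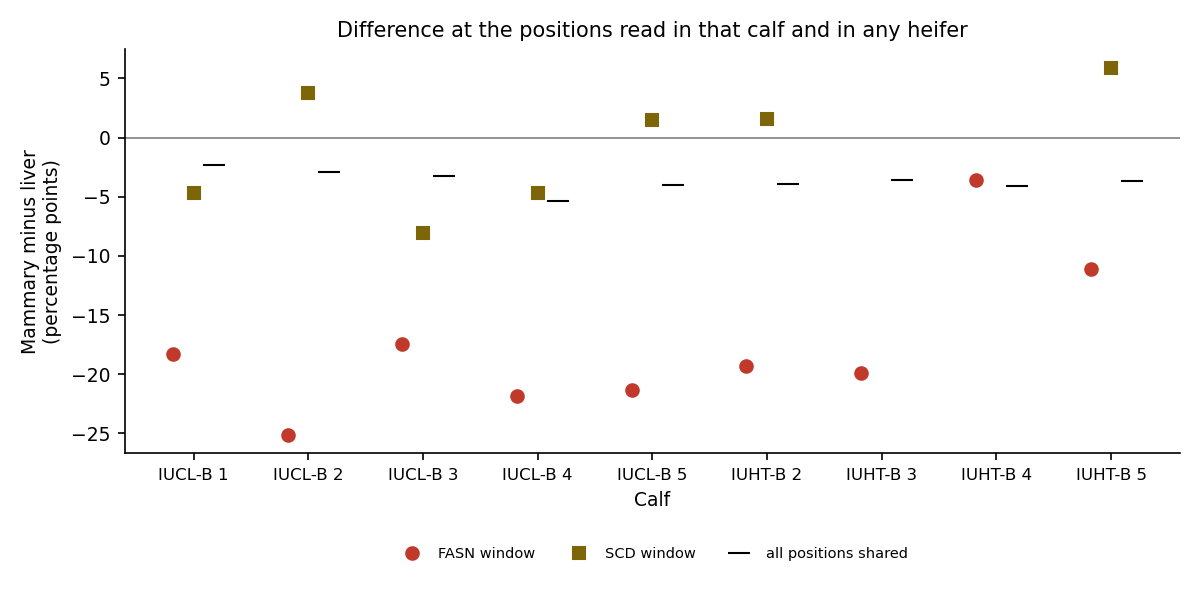
Level in mammary gland minus level in liver (percentage points) for each calf, at the positions read in that calf and in any heifer. Circles are the FASN window, squares the SCD window and bars all shared positions of the genome. FASN lay below the bar in 8 of 9 calves, the exception being IUHT-B 4, and SCD lay on both sides of 0.

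Bin by bin, 15 FASN bins and 3 SCD bins had at least 10 calls in at least 4 heifers and 4 calves. Levels were compared as log2((methylated + 0.5)/(unmethylated + 0.5)) with limma over all 142899 such bins of the genome. Where all calls are in 1 state, this value also depends on the number of calls. Of the 15 FASN bins, 14 had a lower mean in percent in mammary gland and 6 passed an adjusted p of 0.05, all of them lower in mammary gland. On the tested scale the direction could differ. The bin from 51416000 differed by -3.22 points but by 1.57 in log2 odds, and that from 51384000 by 0.170 points and 2.12. Over all bins 19.8% were called lower and 1.41% higher, and 37.3% had an unadjusted p under 0.05, as did 9 of the 15 FASN bins. With edgeR 4 FASN bins passed, and 18.2% of all bins were called lower. With limma and a pseudocount of 1, 5 passed, and 16.5% of all bins were called lower. The median difference was -17.1 points over the 15 FASN bins and -4.37 points over all bins tested. Leaving out any of 5 of the 6 heifers (IUHT-H heifer 3 excepted) left 3 calls in 15 FASN bins, where 12.6% to 12.9% of all bins were called lower. There were 2 FASN calls in 4 tested bins without IUCL-B calves 4 and 5, where 31.9% of all bins were called lower.

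The called FASN bins were spread over the window. The bin from 51391000, inside the gene, was read most in calves. Its 6 heifers had 79.5%, 83.8%, 71.3%, 68.8%, 74.4% and 76.4%, and the 5 IUCL-B calves 100%, 99.9%, 98.6%, 98.1% and 100%. Of the IUHT-B calves, 2 and 3 had 100% and calf 4 had 50.6%. All calves but that one were above every heifer, and the bin was 17.7 points lower in mammary gland (limma adjusted p = 0.0116).

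The bin from 51401000, near the upper end of the gene, had the largest difference of the called FASN bins. Heifers had 65.7%, 65.2% and 61.0% in IUCL-H and 41.9%, 50.7% and 73.2% in IUHT-H. Calves with 10 calls had 99.8%, 100%, 91.3% and 85.4% in IUCL-B and 100% in 1 IUHT-B calf. The tissues did not overlap, and FASN was 35.7 points lower in mammary gland in this bin (limma adjusted p = 0.0144).

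The bin from 51419000, at the top of the FASN window and outside the gene, had the smallest difference of the called FASN bins. Its heifers ran from 84.8% to 93.5% with a median of 88.6%, and its 7 calves from 95.7% to 100% with a median of 100%. Both tissues were highly methylated there, with no overlap, and the difference was -9.97 points (limma adjusted p = 0.0044).

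The other 3 called FASN bins were at 51377000 below the gene and at 51390000 and 51399000 within it. At 51377000 heifers had 57.7% ± 18.1 (n = 6) and calves 88.1% ± 14.5 (n = 5), a difference of -30.4 points (limma adjusted p = 0.0478). At 51390000 they had 69.5% ± 14.7 and 93.6% ± 12.4 (n = 4), and at 51399000 71.3% ± 9.57 and 93.4% ± 9.29 (n = 5). The tissues overlapped in part in the first 2 of these bins, and at 51399000 the highest heifer, at 77.8%, was below the lowest calf, at 80.8%.

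One SCD bin of 3 passed, and it went the other way. It ran from 21123000 to 21123999, below the gene. Heifers with 10 calls had 64.3% and 78.9% in IUCL-H and 75.0%, 60.0% and 71.4% in IUHT-H. IUCL-B calves 2, 3, 4 and 5 had 0%, 0%, 15.4% and 0%, and IUHT-B calf 2 had 0%. These calf levels rested on 1 to 5 positions per calf, and those of the heifers on 8 to 13. The tissues stood far apart, with 69.9% ± 7.74 (n = 5) in mammary gland against 3.08% ± 6.88 (n = 5) in liver, a difference of 66.9 points (limma adjusted p = 0.0042), in a direction in which 1.41% of all bins were called. At the 9 positions of this SCD bin read in both tissues, 1 of 114 calls from 8 calves was methylated, against 38 of 47 calls from 6 heifers. On ARS-UCD2.0 the nearest gene below SCD is PKD2L1, and whether the bin lies in it was not analysed here.

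Inside the SCD gene the reads were too few for most 1 kb bins. The bin from 21148000, at the upper gene end, had 71.4% ± 6.00 (n = 5) in mammary gland and 49.9% ± 57.6 (n = 4) in liver and did not pass (limma adjusted p = 0.899). In bins of 5 kb, those from 21140000 and 21145000, which cover most of the gene, were 28.9 and 22.9 points lower in mammary gland (limma adjusted p = 0.0183 and 0.0348), where 14.0% of all 5 kb bins were called lower. The bin from 21145000 runs past the upper gene end and takes in the 1 kb bin from 21149000, with 285 liver calls at 100%. The 5 kb bin from 21120000, which holds the bin that was higher in mammary gland, was 30.1 points higher and did not pass (limma adjusted p = 0.193). Over the whole SCD gene, mammary gland had 65.5% ± 3.79 (n = 6) and liver 75.4% ± 36.0 (n = 7), a difference of -9.86 points that did not pass (exact permutation p = 0.594, adjusted p = 0.858). The liver mean takes in IUHT-B calf 3 at 0.917%, with 215 of its 218 calls at a single position. The other calves with a level ran from 61.3% to 100%.

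In mammary gland, 23 of the 50 FASN bins were read in enough depth to describe their state. The unmethylated block at the lower gene end is not among them. Its bins from 51384000 and 51385000 had 10 calls in only 5 and 3 heifers. Of the 23 FASN bins with at least 10 calls in every heifer, 17 had a mean between 20% and 80%, which is 73.9%, against 35.9% of the 198304 such bins in the genome. The median was 71.3% for FASN and 83.1% for all bins. The lowest of the 23 was the bin from 51416000 at 10.4% ± 8.30, and the highest that from 51375000 at 94.0% ± 4.96 (n = 6 in both). Of the 1853 single FASN positions read in heifers, 200 had at least 10 calls over all heifers. Of these, 99 lay between 20% and 80%, 97 above and 4 below, and in the gene 82 of 147 lay between. The share of such positions in the genome was not computed. SCD had 3 such bins, 2 of them in the unmethylated block and 1 in the gene, from 21146000, at 65.7% ± 8.17 (n = 6).

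The question of the study was whether late gestation heat stress left a mark on the offspring. In mammary gland the FASN window was at 67.4% ± 5.50 in IUCL-H and 64.7% ± 2.08 in IUHT-H (n = 3 in each), a difference of -2.70 points (exact permutation p = 0.5). The gene alone differed by 0.481 points (exact permutation p = 0.8). With 3 against 3 heifers the smallest possible p is 0.1.

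None of the 23 FASN bins was called between IUHT-H and IUCL-H by limma or by edgeR, and neither was any of the 198304 bins of the genome, so percent called was 0%. At an unadjusted p under 0.05 limma had 1 FASN bin and edgeR 2, where limma had 4.87% of all bins and edgeR 4.12%. The median difference was -2.70 points over the FASN bins, 14 of 23 of them lower in IUHT-H, and -0.0703 points over all bins. With a minimum of 5 calls the FASN median was -0.117 points, with 17 of 33 bins lower. With 1 heifer left out it ran from -5.05 (without IUCL-H heifer 3) to -0.301 points (without IUHT-H heifer 1). In simulated data limma recovered 0.5% and edgeR 31% of bins that fell by 40 points at this size, so a difference of that size could have been missed.

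In 2 FASN bins every IUHT-H heifer was below every IUCL-H heifer, as in 4.81% of all bins. At 51377000, below the gene, IUCL-H heifers had 76.0%, 57.1% and 82.1% and IUHT-H heifers 50.0%, 35.0% and 46.2%, a difference of -28.0 points (limma adjusted p = 0.967). At 51402000, in the gene, they had 80%, 85.3% and 85.7% against 69.0%, 79.3% and 55.8%, a difference of -15.6 points (limma adjusted p = 0.967). None of the 23 FASN bins had every IUHT-H heifer above every IUCL-H heifer. The FASN bin from 51388000, which met only a minimum of 5 calls, did, with 62.5%, 66.7% and 77.8% in IUHT-H against 22.2%, 41.2% and 22.2% in IUCL-H. Other bins and the genome were not screened for this at 5 calls. None of the 33 FASN bins tested by limma at that minimum was called.

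**Figure D5:**
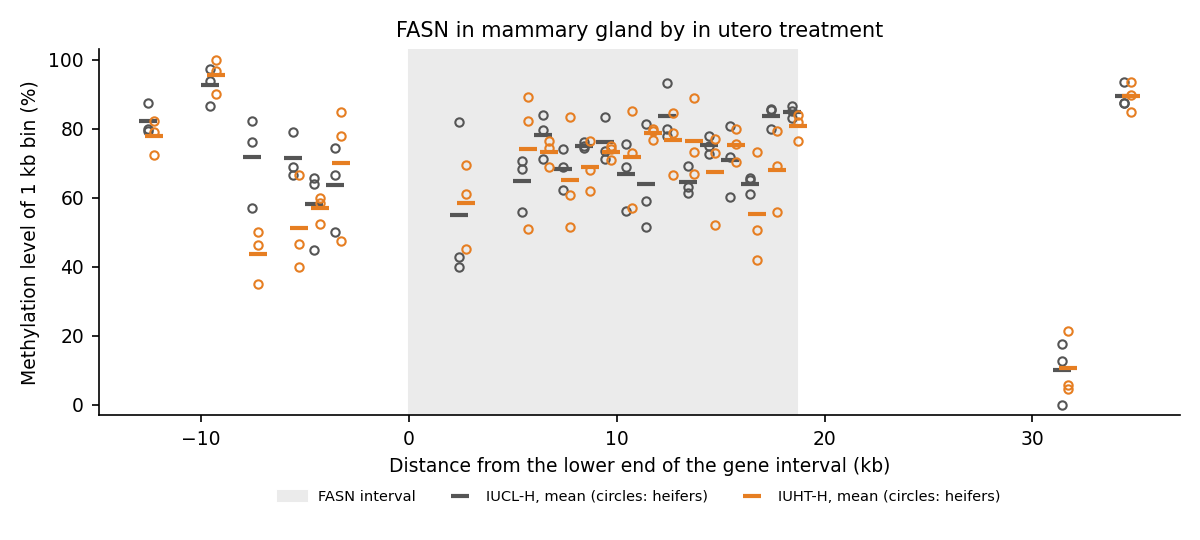
Methylation level (%) of the 23 FASN bins of 1 kb with at least 10 calls in every heifer, against distance (kb) from the lower end of the gene interval, which is shaded. Open circles are heifers and bars group means. The groups are apart in the bins that start at -7.92 kb and 17.1 kb, and overlap in the others.

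SCD in mammary gland had 49.7% ± 7.25 in IUCL-H and 44.6% ± 3.53 in IUHT-H over the window, a difference of -5.08 points (exact permutation p = 0.4). None of its 3 bins was called. In the bin within the gene, from 21146000, IUCL-H heifers had 55.6%, 63.6% and 59.1% and IUHT-H heifers 78.6%, 67.9% and 69.2%. The groups did not overlap, as was so in this direction in 4.83% of all bins, and SCD was 12.5 points higher in IUHT-H there (limma adjusted p = 0.967).

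In liver no 1 kb bin of FASN or SCD was among the 2068 of the genome with 10 calls in every calf. With a minimum of 5 calls the FASN bin from 51391000 was tested and differed by -11.7 points, IUHT-B minus IUCL-B (limma adjusted p = 0.632). Of the FASN bins of 5 kb, those from 51380000 and 51415000 were tested and differed by -11.9 and 17.01 points (limma adjusted p = 0.730 and 0.411), and no SCD bin was tested under either setting. The FASN window was at 81.7% ± 12.7 in IUCL-B and 76.2% ± 18.7 in IUHT-B, a difference of -5.49 points (exact permutation p = 0.627). The SCD window was at 59.6% ± 17.7 in IUCL-B and 68.7% ± 32.0 in IUHT-B, a difference of 9.05 points (exact permutation p = 0.595). With every position weighted alike the SCD difference was 13.8 points (exact permutation p = 0.0159, adjusted p = 0.0635). Each calf taken relative to the heifers at shared positions gave -6.18 points for SCD, with 2 against 5 calves, and -7.33 points for FASN (exact permutation p = 0.190 and 0.0794). The SCD value had the opposite sign to the pooled one, but it also left out IUHT-B calves 3 and 4 and weighted positions alike, and the cause was not tested. With calls pooled the SCD difference rested on single calves: it was 0.408 points without IUHT-B calf 4, 0.620 without IUHT-B calf 5 and 22.6 without IUHT-B calf 3.

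Within the SCD gene, IUCL-B calves 1 to 5 had 98.7%, 100%, 100%, 61.3% and 91.9%. IUHT-B calves 2 and 3, the only ones of their group with 10 calls, had 74.6% and 0.917%, and 215 of the 218 calls of calf 3 came from a single position. The groups overlapped, and the difference of -52.6 points did not pass (exact permutation p = 0.0952, adjusted p = 0.462).

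The region above SCD, from 21148319 to 21165000, had the lowest p of the pooled comparisons between the liver groups. IUCL-B calves 1 to 5 had 96.6%, 42.6%, 55.5%, 64.5% and 58.0%, and IUHT-B calves 2 to 5 had 98.9%, 100%, 87.4% and 100%. One IUCL-B calf overlapped the IUHT-B calves and the others lay below them. The difference was 33.1 points (exact permutation p = 0.0238, adjusted p = 0.225 over the 26 tests of regions within the windows). The IUHT-B levels rested on 2 to 5 positions per calf, and those of IUCL-B on 9 to 36. In the same region IUCL-H heifers had 63.2%, 58.7% and 51.5% and IUHT-H heifers 40.3%, 43.3% and 53.7%, a difference of -12.1 points (exact permutation p = 0.2). The treatment differences in the tissues differed by -45.2 points (exact permutation p = 0.0048, adjusted p = 0.124). For the FASN and SCD windows, with calls pooled, they differed by 2.79 and -14.1 points (exact permutation p = 0.809 and 0.412).

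The study's methods ask for more than 10 reads at a site, and here this was required in all animals of the tissue. No single cytosine position of FASN or SCD met that minimum, and the strands of a CpG were not joined. The site test could be run at 18486 positions in mammary gland and 900 in liver, none of them in either window. With at least 5 reads, 1 FASN position of 40105 entered in mammary gland, at 51401887, near the upper end of the gene. IUCL-H heifers had 90.0%, 57.1% and 84.6% there, and IUHT-H heifers 100%, 71.4% and 100%, on 5 to 13 reads each. The pooled levels were 80% and 88.2%, and the position was not called (logistic regression, adjusted p = 0.849). The next deepest FASN positions, 51401870 and 51403083, ran from 25.0% to 72.7% and from 71.4% to 100% over the heifers. The deepest SCD positions had 1 to 6 reads per heifer: 21123927 had 2 or 3 reads and levels from 50.0% to 100%, 21146717 levels from 0% to 33.3%, and 21146692 levels from 33.3% to 100%.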

How the data were processed

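The authors digested DNA with the enzymes MspI and TaqαI, kept fragments shorter than 300 bp and read 50 bp from 1 end. Per the labels, reads were processed with FastQC, Trim Galore 0.4.4 and Bismark 0.17.0 on UMD3.1. The study's methods state the pbat mode and that the first 6 bases were ignored. The authors deposited, per animal and cytosine position, the count of methylated and unmethylated calls and the percent methylated. All values here came from the counts. PCR copies could not be removed, so repeated reads of a position are not independent molecules.

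Levels were pooled calls per region or 1 kb bin, with at least 10 calls. Regions were tested over animals by exact permutation, two-sided. Bins were fitted over the whole genome with limma 3.58.1 (pseudocount 0.5, Benjamini-Hochberg adjustment) and, as an alternative, edgeR 4.0.16. On simulated bins of the tissue comparison that fell by 40 points, limma recovered 79.5% and 11.7% of its calls were false, above the intended 5%. The simulated reads were independent draws with the same spread in both tissues, and 200 of 20000 bins were changed. Deep calf positions of both genes were mostly in 1 state only, so these shares may not hold for the real bins. The site test was a logistic regression with a likelihood-ratio test, called at 15 points and q of 0.2. Named bins were those at the gene ends, the lowest and highest mammary levels, called bins and bins that carry a result, and named sites the 3 deepest per gene. The members and lists were chosen with earlier results of these data known. Other genes of milk fat synthesis were not analysed here, since no annotation of UMD3.1 was used. Nothing in the labels states technical replication, and each library was 1 animal.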

Additional observations from a re-analysis of the deposited data

Results flagged for a closer look

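In 13 groups of 4 or 5 calves, taken over the levels and the shared-position differences of the regions, 3 values stood far from the rest of their group by Dixon's criterion, which flags about 1 group in 20 by chance. IUCL-B calf 4 had 60.6% over the FASN gene, against 87.8% to 98.7% in the other IUCL-B calves. It held 176 positions of the gene, against 32 to 45 in IUCL-B calves 1 to 3 and 437 in IUCL-B calf 5, which had 87.8%. Calf 4 had 77.5% with every position weighted alike. The same calf had 61.3% over the SCD gene, against 91.9% to 100% in the other IUCL-B calves, and 76.5% with every position weighted alike. IUHT-B calf 4 had 87.4% above the SCD gene, on 5 positions, against 98.9% to 100% in the other IUHT-B calves.

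The treatment difference above the SCD gene differed between the tissues by -45.2 points, by a test of that difference itself (exact permutation p = 0.0048), which did not pass after adjustment (adjusted p = 0.124).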

How the results depend on the processing

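The tissue difference of the FASN window passed only where positions were weighted alike, at -15.3 points, or counted as 1 call, at -13.4 points, and leaving out 1 animal kept it between -15.99 and -11.0 points. With liver from IUCL-B calves 4 and 5 alone it was -5.41 points for FASN and -5.15 for SCD (exact permutation, adjusted p = 0.393 for both). The number of FASN bins called in that comparison was 2 of 9 tested with a minimum of 20 calls and 2 of 9 in 5 kb bins. It was 2 of 4 without IUCL-B calves 4 and 5 (an alternative chosen after seeing the data). In these settings 22.7%, 14.0% and 31.9% of all bins were called lower. For SCD the number was 0 of 1, 2 of 6 and 0 of 0, and the bin called at 10 calls was not tested in the first and last of these. With a minimum of 5 calls 8 of 21 FASN bins were called, where 15.6% of all bins were called lower. With 1 animal left out, 3 to 6 of 8 to 15 tested FASN bins were called, where 12.6% to 27.3% of all bins were called lower. Of the 7 called bins, those at 51391000, 51401000, 51419000 and 21123000 passed in every alternative in which they were tested. Those at 51377000, 51390000 and 51399000 lost the call in 12 of 20, 6 of 15 and 11 of 20, with adjusted p up to 0.122, 0.0825 and 0.0667.

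Some treatment differences of FASN changed sign, while the window in mammary gland stayed lower in IUHT-H, from -5.81 (without IUCL-H heifer 3) to -0.585 points (without IUCL-H heifer 1) and at -4.29 and -4.21 under the weightings. In liver the window ran from -12.6 to 0.711 points with 1 animal left out (0.711 without IUHT-B calf 2) and the gene from -15.5 to 1.07. In mammary gland the gene ran from -1.97 to 2.75 points, and was -1.11 with positions weighted alike, -0.611 with 1 call per position and -0.124 without its first 2 kb (chosen after seeing the data). The difference between the tissues ran from -3.41 to 9.92 points for the window, with -4.17 and -4.19 under the first 2 of those weightings, and from -0.588 to 16.03 for the gene. The SCD window ran from 0.408 to 22.6 points in liver, from -7.99 (without IUCL-H heifer 3) to -1.02 (without IUCL-H heifer 2) in mammary gland, and from -27.6 (without IUHT-B calf 3) to -5.49 (without IUHT-B calf 4) for the difference between the tissues. SCD in liver was -6.18 points relative to the heifers at shared positions, also chosen after seeing the data. The cause was not tested.

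Calves 2 to 5 share numbers across groups but are different animals. Deviations of same-numbered calves over 2068 bins correlated from -0.0820 to 0.0366, and 1 of 4 IUHT-B calves correlated best with its own number. No pairing by number was seen, but such correlations cannot decide whether the numbers mark pairs. With the number as a replicate block (sign-flip exact permutation test) the FASN window differed by -5.55 points (p = 0.750) and the SCD window by 16.2 points (p = 0.375). With 4 pairs this test cannot give a p under 0.05. No 1 kb bin of either gene could be tested with the block, so no call could change. Depth limits both genes: no site had over 10 reads, and no 1 kb liver bin 10 calls, in every animal of the tissue.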
